A study of Mus musculus with 7 samples.

Results

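The RNAs described here are 7S RNA and the first genes read from the light-strand promoter of mouse mitochondrial DNA, which lie in the order mt-Tp, mt-Te and mt-Nd6. They are 4 of the 36 mitochondrially encoded features and of 49584 features listed in all, chosen by name, and all 4 had enough counts to be tested. Small RNA had been sequenced from crude heart mitochondria of 4 knockout mice (genotype Tefm -/-, labelled L/L, cre) and 3 control mice (genotype Tefm +/+, labelled L/L). In both groups an exon of Tefm was flanked by loxP sites. Knockouts had in addition a cre transgene under the muscle creatine kinase promoter, whose activity is in heart and skeletal muscle cells, so other cells of the heart keep the gene. Ages are not stated in the labels. Of the 4 control mice in the design text 3 are analysed here. Each library was taken to be 1 mouse, and if libraries shared a mouse the p-values would describe technical spread.

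Each strand of mitochondrial DNA is copied by the mitochondrial RNA polymerase into a long precursor, and the tRNAs that punctuate it are cut out by RNase P at the 5′ end and ELAC2 at the 3′ end. Transcription from the light-strand promoter (the L-strand transcript) serves as a source of genes and also of primers for replication of the heavy strand. 7S RNA is the short, polyadenylated product of transcription that stops soon after this promoter, within the control region. Tefm, the mitochondrial transcription elongation factor, raises the processivity of this polymerase, and the knockout asks what its absence does to mitochondrial RNAs.

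The genes of both tRNAs and the start of mt-Nd6 are shown because their places along the transcript are what the ratios below compare. mt-Tp, the tRNA for proline, is the member gene nearest the control region (chrM:15356-15422, minus strand, ENSMUSG00000064372.1). mt-Te, the tRNA for glutamate, follows after 1216 bases (chrM:14071-14139, minus strand, ENSMUSG00000064369.1). mt-Nd6 encodes a membrane subunit of complex I and is the only mRNA of this strand (chrM:13552-14070, minus strand, ENSMUSG00000064368.1). No base lies between mt-Te and mt-Nd6, so the end of the mt-Te sequence runs straight into the start codon. The sequences are those of GENCODE M21 (GRCm38), 5′ to 3′ in DNA letters, with the anticodon in capitals in the tRNAs (bases 31 to 33 of each) and the start codon in capitals in mt-Nd6. They are printed as encoded, without the CCA tail that is added after transcription.
mt-Tp: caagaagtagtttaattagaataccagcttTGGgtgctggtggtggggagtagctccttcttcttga
mt-Te: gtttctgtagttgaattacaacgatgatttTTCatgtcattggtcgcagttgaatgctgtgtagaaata
mt-Nd6 (first 60 bases, chrM:14011-14070, minus strand): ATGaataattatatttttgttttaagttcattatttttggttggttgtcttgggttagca
The row for 7S RNA, mt-7s, was deposited without coordinates, and no sequence of it is shown here.

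Gene counts summed to between 973835 and 1302619 in knockouts and between 1560798 and 2570739 in controls. Counts of the targeted gene were 3 over all knockouts and 3 over all controls, too few to check the labels. All 6 cardiomyocyte markers had counts, summing to between 862 and 5983 CPM (counts per 1e6 counts of the library) in knockouts and between 1931 and 2835 in controls. Fibroblast markers (5 of 5 with counts) summed to between 99.0 and 1791 CPM in knockouts and between 149 and 363 in controls, and endothelial markers (5 of 5) to between 17.1 and 247 CPM in knockouts and between 46.8 and 144 in controls. White blood cell markers (3 of 5, with Cd52 and S100a8 at 0) came to between 7.02 and 57.1 CPM in knockouts and between 15.4 and 32.7 in controls, and erythroid markers (5 of 5) to between 3.84 and 28.0 CPM in knockouts and between 11.3 and 13.9 in controls. Liver markers (2 of 4, with Apoa1 and Serpina1a at 0) stayed at or below 1.56 CPM in knockouts and 0.389 in controls. Their part in the results was not tested. In bulk samples, fewer cells of a type and less RNA per cell cannot be told apart.

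The libraries differed widely, within both groups, in how many microRNA and snoRNA counts they held for each count of nuclear protein-coding genes. The log2 of this quotient is here called the small RNA ratio. It was 1.84, 3.11, 0.54 and -2.44 in knockouts 1 to 4 and 2.88, -1.35 and 0.61 in controls 1 to 3. Control 1 had the highest ratio of the controls, and it stood apart from controls 2 and 3 in mt-Nd6 and in the ratios of the other members to mt-Nd6. Values without it are given beside the results that it moved most.

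In knockout mitochondria 7S RNA, mt-Tp and mt-Te were higher on average than in controls, and mt-Nd6 was not. The mean share of counts was 8.59-fold higher in knockouts for mt-Tp, 5.04-fold for 7S RNA and 3.68-fold for mt-Te. Without control 1 mt-Tp (10.1-fold) and 7S RNA (9.95-fold) were nearly level, with mt-Te at 3.88-fold, and in the edgeR fit the log2 fold change of 7S RNA (3.34) then exceeded that of mt-Tp (2.95). For mt-Tp and mt-Te the share in every knockout lay above that in every control, as for 9.30% of all genes tested. 7S RNA and mt-Nd6 overlapped between the groups. With TMM scaling no member passed the edgeR test over all genes, in which 6.98% of the 1505 genes tested were called in either direction and 5.25% were called higher.

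7S RNA, the most abundant member, made up 26.2%, 18.5%, 11.5% and 3.36% of all counts in knockouts 1 to 4, against 5.87%, 0.796% and 2.19% in controls 1 to 3. Knockouts 1 to 3 lay above every control, and knockout 4 lay between controls 1 and 3. With such wide ranges within the groups there was a fold change of 2.27 ± 1.45 on the log2 scale (SE), with an adjusted p of 0.385 by edgeR. Without control 1 the log2 fold change was 3.34 (edgeR adjusted p = 0.337), and without knockout 1 it was 1.39 (edgeR adjusted p = 0.655). The difference in share was 11.9 percentage points (two-sided exact permutation test, p = 0.114). In the authors' deposited table mt-7s has a log2 fold change of 1.38 with an adjusted p of 0.436.

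mt-Tp, which supplies the tRNA that reads proline codons, had the steadiest counts and shares of the 4 within the knockouts. It had 4249, 4033, 3812 and 3520 counts in knockouts 1 to 4, against 808, 729 and 800 counts in controls 1 to 3, although the control libraries were larger. As a share of all counts this was 0.331%, 0.310%, 0.391% and 0.340% in the knockouts, against 0.0518%, 0.0284% and 0.0397% in the controls. The lowest knockout thus lay well above the highest control, and the difference in share reached the smallest p that 35 assignments of 7 libraries to groups of 4 and 3 allow (two-sided exact permutation test, p = 0.0286, not adjusted, 1 of 4 shares tested). Of all genes tested, 9.30% had shares that were higher in every knockout than in every control. In the fit over all genes the normalised level was 3542 ± 2303 CPM in knockouts and 549 ± 264 CPM in controls (SD, n = 4 and 3), which is 2.69 ± 0.84 on the log2 scale (SE) with an adjusted p of 0.0993 by edgeR. On that normalised scale the knockouts ran from 1110 to 6490 CPM for mt-Tp and from 6996 to 17948 CPM for mt-Te, so that mt-Te and not mt-Tp was the steadier there. mt-Tp passed in the authors' deposited table, where the log2 fold change is 2.19 (adjusted p = 0.0068) and 4.80% of 4105 genes with an adjusted p were called in either direction and 2.73% were called higher.

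mt-Te, which supplies the tRNA for glutamate, made up 0.916%, 0.612%, 1.59% and 2.15% of counts in knockouts 1 to 4, against 0.396%, 0.335% and 0.342% in controls 1 to 3. The controls were nearly level, and the knockouts spread over a wide range above them. The log2 fold change was 1.18 ± 0.68 (SE; edgeR adjusted p = 0.339), and 0.99 in the authors' deposited table (adjusted p = 0.2). Groups that did not overlap in normalised counts, higher in knockouts as for mt-Tp and mt-Te, were found for 14.0% of all genes tested.

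mt-Nd6 made up 0.0928%, 0.101%, 0.0543% and 0.0203% of counts in knockouts 1 to 4, against 0.0226%, 0.110% and 0.110% in controls 1 to 3. The lowest library of each group, knockout 4 and control 1, were close to each other, and the groups overlapped throughout. The log2 fold change was -0.16 ± 1.06 (SE; edgeR adjusted p = 0.953), and its sign turned positive without knockout 3, knockout 4 or control 3, with the replicate block and in a fit to mitochondrially encoded features alone. With this error only a large change in either direction could have been detected.

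**Figure D1:**
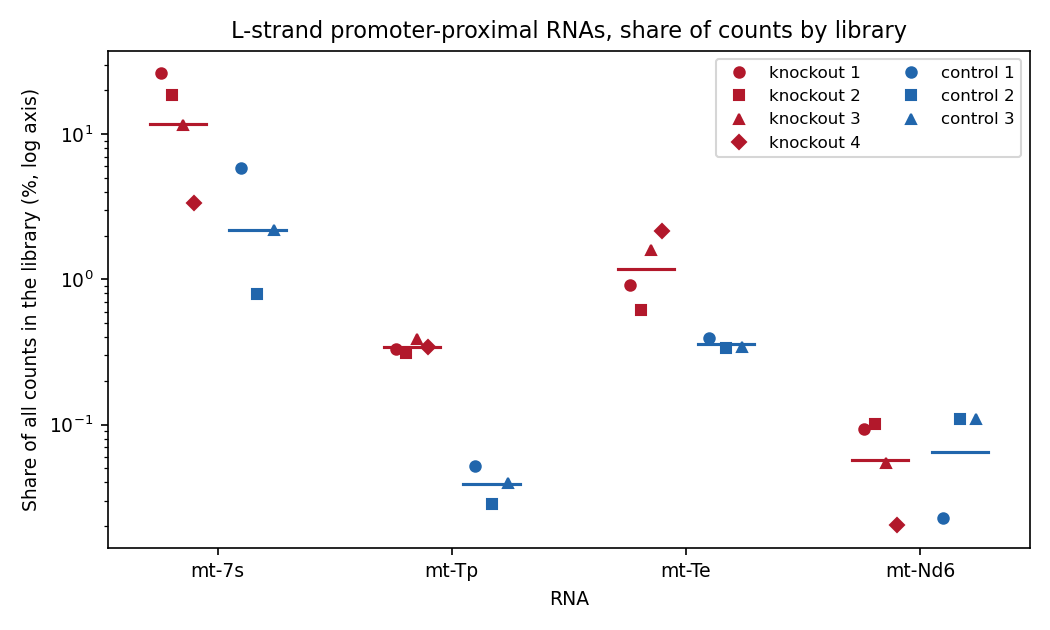
Share of all counts in a library (percent, log axis) for each member, with 1 symbol for each library and a line at the geometric mean of the group. mt-Tp lay between 0.310% and 0.391% in the 4 knockouts and between 0.0284% and 0.0518% in the 3 controls, while 7S RNA and mt-Nd6 overlapped between groups.

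Per base of gene length, mt-Te was above mt-Tp and mt-Tp above mt-Nd6 in every library of both groups. On the scale of CPM per base, mt-Te had a mean level of 191 ± 99.7 in knockouts and 51.8 ± 4.78 in controls, mt-Tp one of 51.2 ± 5.18 and 5.96 ± 1.75, and mt-Nd6 one of 1.29 ± 0.72 and 1.56 ± 0.97 (SD, n = 4 and 3). The libraries hold short RNAs, so that mt-Nd6 is seen through pieces and this is an order of recovered pieces. 7S RNA has no length in the files and was left out of it.

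Within the 4 members, 7S RNA took 95.1%, 94.8%, 84.9% and 57.2% of the counts in knockouts 1 to 4 and 92.6%, 62.7% and 81.7% in controls 1 to 3. mt-Nd6 took at most 0.520% of them in any knockout and 0.357% in control 1, but 8.68% and 4.10% in controls 2 and 3. The balance inside the set therefore differed more between control 1 and the other controls than between control 1 and knockout 1.

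Ratios between members were taken within each library, where scaling between libraries cancels. Of the 6 pairs, mt-Tp over mt-Nd6 and mt-Tp over mt-Te did not overlap between groups, and the other 4 did. Among all 630 ratios between 2 mitochondrially encoded features, 38.9% did not overlap, so such a separation was common in these libraries. In all, 19 ratios were tested, and after adjustment over them the smallest p was 0.0776.

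mt-Tp over mt-Nd6 was 3.57, 3.05, 7.20 and 16.7 in knockouts 1 to 4, against 2.29, 0.257 and 0.361 in controls 1 to 3. The lowest knockout and control 1 were close, and the other controls were far below. On the log2 scale the difference was 3.33 (two-sided exact permutation test, p = 0.0286, adjusted p = 0.0776), 4.30 without control 1 and 2.73 without control 2.

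mt-Tp over mt-Te compares 2 tRNAs of nearly the same length on the same transcript. It was 0.362, 0.506, 0.246 and 0.159 in knockouts 1 to 4, against 0.131, 0.0847 and 0.116 in controls 1 to 3. Every knockout lay above every control, with knockout 4 nearest to them. The mean log2 ratio was -1.78 ± 0.72 in knockouts and -3.20 ± 0.32 in controls (SD, n = 4 and 3), a difference of 1.42 (two-sided exact permutation test, p = 0.0571, adjusted p = 0.0987).

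7S RNA over mt-Nd6 was alike in all 4 knockouts, at 282, 182, 211 and 165, against 259, 7.22 and 19.9 in controls 1 to 3. Control 1 lay within the range of the knockouts and the other controls far below every knockout. The difference of the log2 means was 2.62 (two-sided exact permutation test, p = 0.114, adjusted p = 0.167), 4.10 without control 1 and 1.52 without control 2. mt-Te over mt-Nd6 differed by 1.91 (exact permutation p = 0.2), 7S RNA over mt-Te by 0.71 (exact p = 0.6) and 7S RNA over mt-Tp by -0.71 (exact p = 0.514), with overlapping groups in each case. Without control 1 these 3 differences were 2.75, 1.35 and -0.20, and without knockout 4 they were 1.13, 1.60 and -0.11.

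The 6 tRNAs farther along the L-strand transcript run from mt-Ts1 (6613 bases beyond mt-Nd6) to mt-Tq. Their counts are of recovered tRNA, and how much of the transcript reaches them was not measured. All 6 were tested, and all had negative log2 fold changes with TMM scaling, though mt-Tc turned positive when libraries were scaled to mitochondrially encoded features, to microRNA genes or to total counts, and mt-Ts1 in the first of these. With TMM 0 passed in either direction over all genes by edgeR, 0 had an unadjusted p under 0.05 there, and 0 passed with DESeq2. With the small RNA ratio as a covariate, a choice made after the data were examined, 3 of the 6 were called lower (mt-Ty, mt-Tn and mt-Tq). That fit called 371 of 1505 genes, 175 of them lower. With TMM the median of the 6 tRNAs was -1.47 against 0.02 for all genes tested. The 6 ran from -2.42 for mt-Tn, the tRNA for asparagine, to -0.36 for mt-Tc, the tRNA for cysteine. Most genes tested are nuclear. In the fit to mitochondrially encoded features alone their median was -0.83, near the -0.64 of all features in that fit. There mt-Ts1 and mt-Tc were positive and 0 of the 6 passed.

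Set against the mean log2 count of these 6 tRNAs in the same library, mt-Tp stood at 0.91, 1.90, 1.81 and 1.87 in knockouts 1 to 4 and at -2.71, -2.50 and -2.77 in controls 1 to 3. Knockouts were positive and controls negative without exception, and the difference of 4.28 is 19.5-fold (two-sided exact permutation test, p = 0.0286, adjusted p = 0.0776). For mt-Te the mean was 3.40 ± 0.96 in knockouts and 0.54 ± 0.46 in controls (SD, n = 4 and 3), a difference of 2.87, again without overlap (exact permutation p = 0.0286, adjusted p = 0.0776). 7S RNA differed by 3.57, without overlap, its lowest knockout being at 5.17 and its highest control at 4.11 (exact permutation p = 0.0571, adjusted p = 0.0987). mt-Nd6 differed by 0.95 with overlapping groups (exact permutation p = 0.457), and by -0.0433 without control 1. How many other mitochondrially encoded features separate from this mean, or from that of the H-strand tRNAs below, was not counted. Between 2 single features 38.9% of ratios did not overlap, so a separation alone does not set a member apart.

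**Figure D2:**
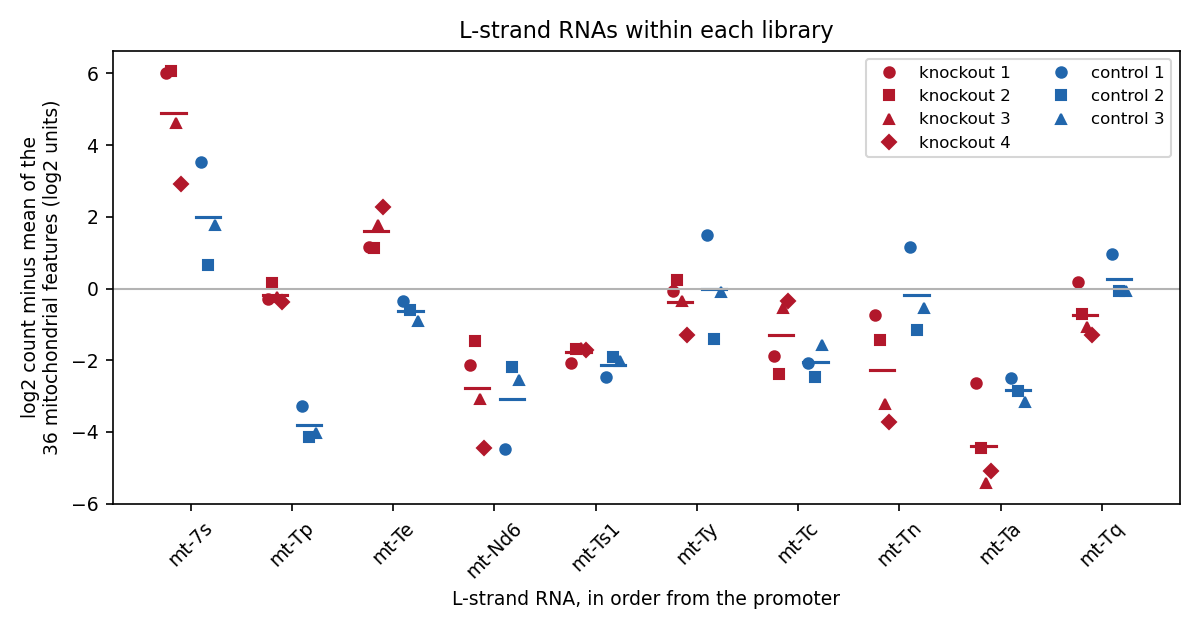
log2 count of each L-strand RNA minus the mean log2 count of the 36 mitochondrially encoded features of the same library, in order from the promoter, with 1 symbol for each library and a line at the group mean. Knockouts lie above controls for mt-Tp and mt-Te, and the groups overlap for 7S RNA, for mt-Nd6 and for each of the 6 tRNAs beyond it.

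Relative to the 8 distal tRNAs of the heavy-strand (H-strand) transcript, the same members did not overlap between groups. mt-Tp stood 1.52 ± 0.27 log2 units above the mean of these 8 tRNAs in knockouts, against -2.44 ± 0.07 in controls (SD, n = 4 and 3). mt-Te stood 3.30 ± 0.51 above it in knockouts, against 0.76 ± 0.30 in controls. Neither overlapped (exact permutation p = 0.0286 each, adjusted p = 0.0776 each). 7S RNA differed by 3.24, also without overlap (exact permutation p = 0.0571, adjusted p = 0.0987). For mt-Te the difference of 2.54 became 1.87 when the 8 tRNAs were summed before the log, with exact permutation p = 0.0857. mt-Nd6 differed by 0.62 with overlap (exact permutation p = 0.6), and by -0.31 without control 1.

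Each of mt-Tp, mt-Te and mt-Nd6 has a neighbour read in the opposite direction, from the H-strand transcript, whose genes lie far from the heavy-strand promoter. mt-Tp abuts mt-Tt, the tRNA for threonine, with no base between them. The ratio of mt-Tp to mt-Tt was 8.75, 8.22, 7.59 and 6.84 in knockouts 1 to 4, against 0.344, 0.683 and 0.592 in controls 1 to 3. The tRNA of the L strand was thus the more counted of the 2 in every knockout and the less counted in every control. The difference of the log2 means was 3.92, or 15.1-fold (two-sided exact permutation test, p = 0.0286, adjusted p = 0.0776), and it lay between 3.62 and 4.12 when any 1 library was left out.

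mt-Te lies 5 bases from mt-Cytb, the mRNA of cytochrome b. Their ratio was 0.913, 0.769, 0.983 and 0.921 in knockouts 1 to 4, against 0.437, 0.0595 and 0.0863 in controls 1 to 3. The knockouts were nearly level, and control 1 was closer to them than to the other controls. Like mt-Nd6, mt-Cytb is an mRNA seen through pieces, so a difference between libraries in the kinds of RNA recovered need not cancel here. Among the controls this ratio followed the order of the small RNA ratio, and among the knockouts it followed neither that order nor its reverse. The difference of the log2 means was 2.77 (exact permutation p = 0.0286, adjusted p = 0.0776), and 3.64 without control 1.

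mt-Nd6 shares 14 bases with the end of mt-Nd5, a complex I mRNA of the other strand. The labels do not say whether counting used strand, so reads in those bases cannot be assigned. If it did not, RNA of the H-strand transcript opposite mt-Tp, mt-Te or mt-Nd6 would be counted to them over their whole length. The ratios to the H-strand neighbours carry this limit for each of these members. The ratio of mt-Nd6 to mt-Nd5 was 0.109, 0.149, 0.0327 and 0.00831 in knockouts 1 to 4, against 0.0155, 0.0153 and 0.0201 in controls 1 to 3. Knockouts 1 to 3 lay above the controls and knockout 4 below them (difference of the log2 means 1.45, exact permutation p = 0.286).

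**Figure D3:**
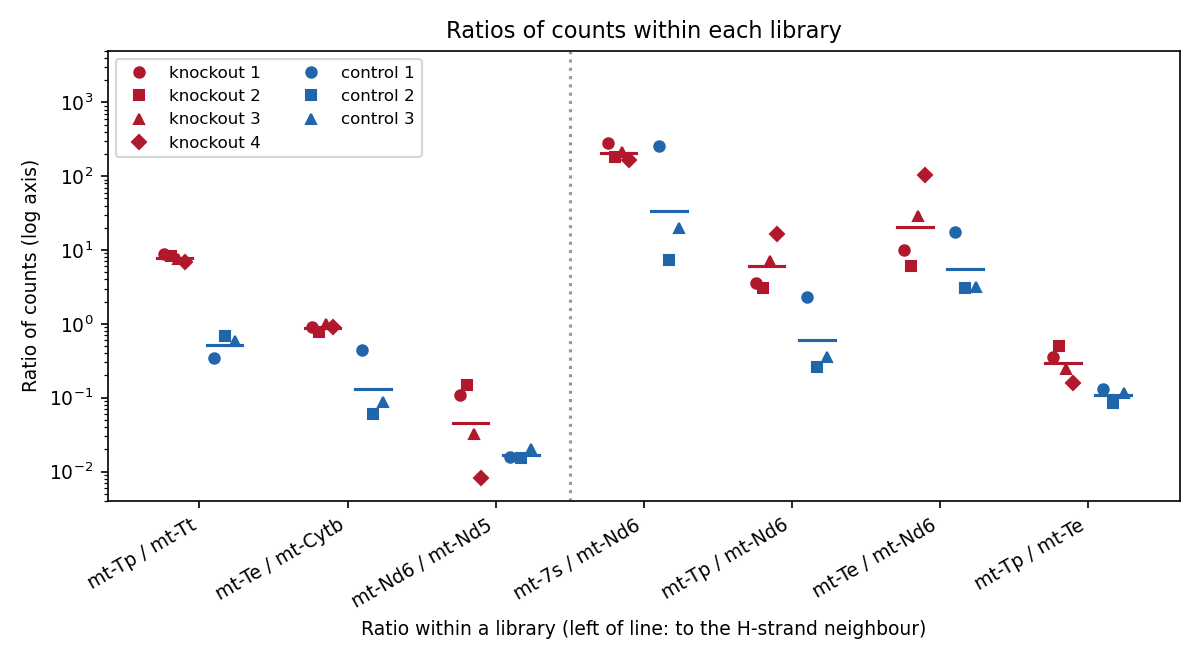
Ratios of counts within each library (log axis), to the H-strand neighbour on the left of the dotted line and between members on the right, with 1 symbol for each library and a line at the geometric mean of the group. mt-Tp over mt-Tt was above 6.8 in all 4 knockouts and below 0.69 in all 3 controls, and 7S RNA over mt-Nd6 in control 1 (259) lies among the knockouts.

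mt-Tf, the tRNA for phenylalanine, is the first gene read from the heavy-strand promoter. 7S RNA was lower relative to mt-Tf in knockouts, at 25.5, 41.1, 7.52 and 2.21 times its counts in knockouts 1 to 4, against 72.0, 67.9 and 100.4 times in controls 1 to 3. The groups did not overlap, as for 38.9% of ratios between 2 mitochondrially encoded features. The log2 difference was -2.78 (two-sided exact permutation test, p = 0.0571, adjusted p = 0.0987). Among the knockouts this ratio followed the order of the small RNA ratio. Among the controls it followed neither that order nor its reverse. mt-Tp relative to mt-Tf differed by -2.06 with overlap (exact permutation p = 0.0857, adjusted p = 0.136). The rise of mt-Tf itself was called in the authors' deposited table (log2 fold change 3.06, adjusted p = 4.42e-04), where 2.73% of 4105 genes were called higher.

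The members moved with the small RNA ratio of the libraries to different degrees. Among the knockouts, knockout 4 had the lowest ratio and the lowest share of 7S RNA, and knockouts 1 and 2 had the highest of both. mt-Nd6 followed the order of the ratio in the knockouts and mt-Te the reverse order, while mt-Tp followed neither. Among the controls the shares of 7S RNA, mt-Tp and mt-Te followed the order of the ratio, and mt-Nd6 was lowest where the ratio was highest. mt-Tp over mt-Te followed it in both groups. Libraries of near-equal ratio, set side by side after the values were seen, give a view of the groups with this difference small. Knockout 3 (0.54) and control 3 (0.61) had 11.5% and 2.19% of 7S RNA, 0.391% and 0.0397% of mt-Tp, 1.59% and 0.342% of mt-Te, and 0.0543% and 0.110% of mt-Nd6. Knockout 2 (3.11) and control 1 (2.88) had 18.5% and 5.87% of 7S RNA, 0.310% and 0.0518% of mt-Tp, 0.612% and 0.396% of mt-Te, and 0.101% and 0.0226% of mt-Nd6. mt-Tp over mt-Te was 0.246 and 0.116 in the first pair and 0.506 and 0.131 in the second. The knockout was the higher of each pair for 7S RNA, mt-Tp and mt-Te, and mt-Nd6 differed in sign between the pairs. For mt-Tp and mt-Te any knockout set beside any control gives this, as their shares did not overlap. For 7S RNA any pair but knockout 4 with control 1 gives it. The pairs are therefore a description, and the part of the small RNA ratio in these differences was not tested by them.

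**Figure D4:**
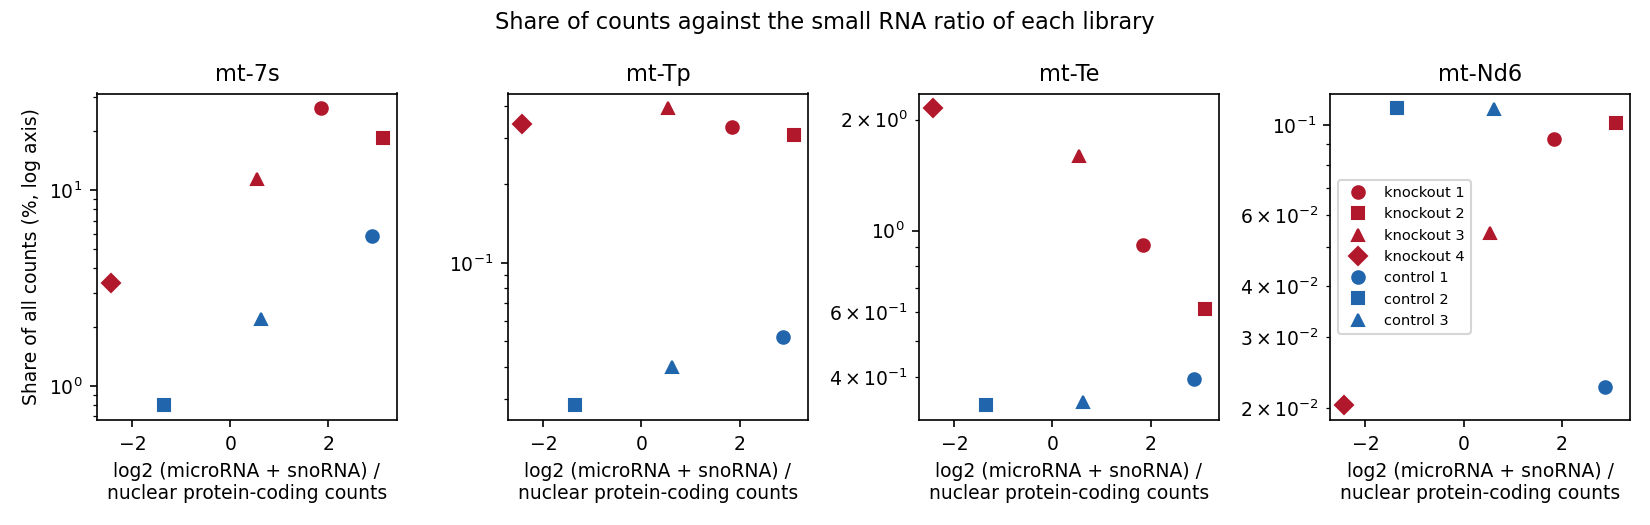
Share of all counts (percent, log axis, a scale of its own in each panel) of each member against the log2 ratio of microRNA and snoRNA to nuclear protein-coding counts, with 1 symbol for each library. 7S RNA is lowest in each group in the library with the lowest ratio, and mt-Tp stays between 0.310% and 0.391% in knockouts across the whole range.

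With the small RNA ratio as a covariate in the edgeR fit, a choice made after the data were examined, mt-Tp rose (log2 fold change 2.59, adjusted p = 0.00134) and so did 7S RNA (2.02, adjusted p = 0.046), in a fit that called 24.7% of all genes in either direction and 13.0% higher, while mt-Te (1.19, adjusted p = 0.0655) and mt-Nd6 (-1.15, adjusted p = 0.385) did not pass. DESeq2 without the covariate called mt-Tp alone of the 4 (2.68, adjusted p = 0.00732), with 8.74% of genes called higher. In a fit to the 36 mitochondrially encoded features alone, also chosen after the data were examined, mt-Tp, 7S RNA and mt-Te were called higher, where 36.1% of the features were called in either direction and 19.4% higher. Over 18 alternative settings the log2 fold change ran from 2.25 to 3.59 for mt-Tp, from 1.39 to 3.34 for 7S RNA, from 0.83 to 2.23 for mt-Te and from -1.58 to 0.33 for mt-Nd6. Scaling to total counts put the median over all genes at 0.93 on the log2 scale, scaling to mitochondrially encoded features put it at 1.12, and scaling to microRNA genes at 0.88, against 0.02 with TMM. Under each of them the values of mt-Tp and 7S RNA stayed above that median, as did those of mt-Te, and mt-Nd6 lay below it.

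**Figure D5:**
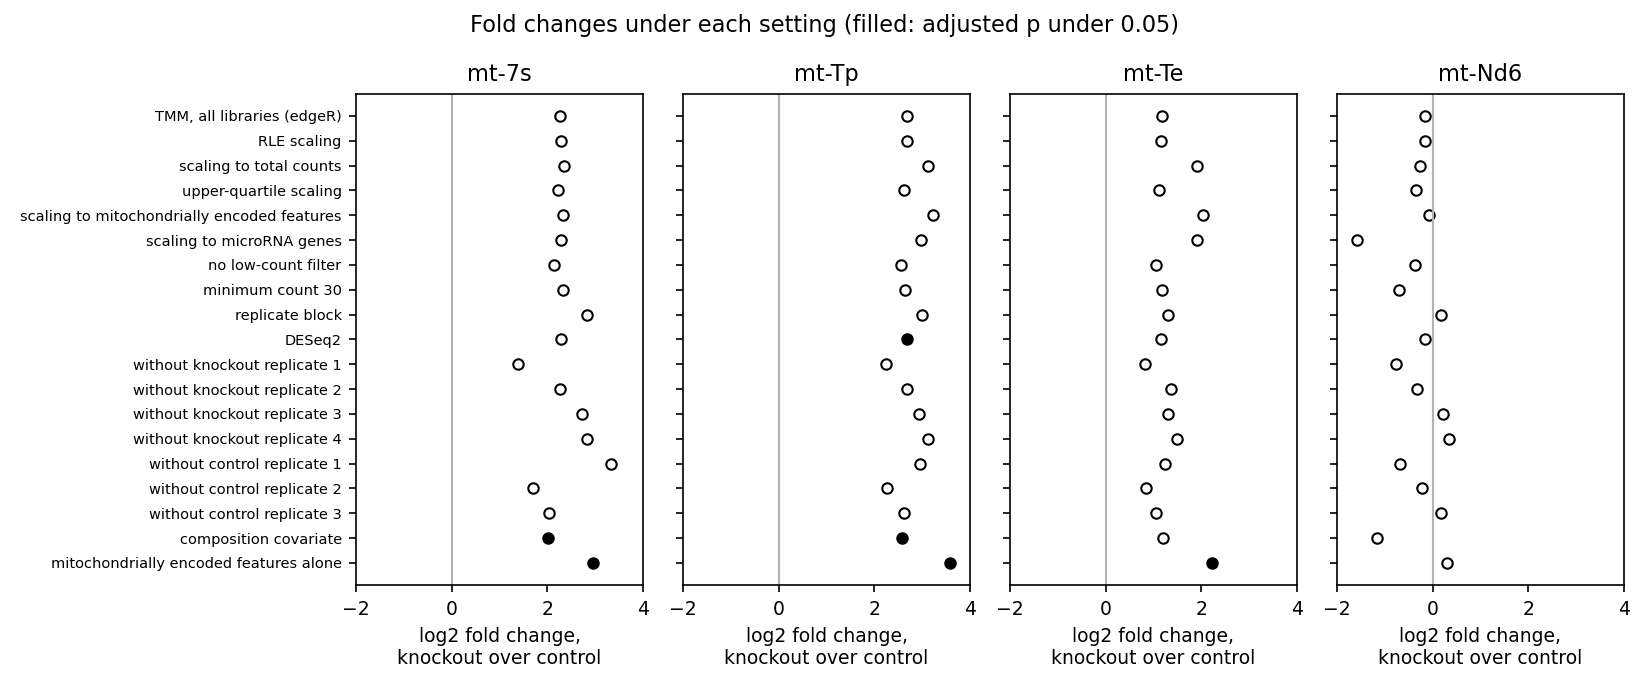
log2 fold change of each member (knockout over control) under each setting, from the edgeR fit with TMM scaling at the top to the fit on mitochondrially encoded features alone at the bottom, with filled points at an adjusted p under 0.05. mt-Tp ran from 2.25 to 3.59 and mt-Nd6 from -1.58 to 0.33.

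By Pearson's r of log2 CPM over the 7 libraries, which describes likeness and carries no test since the highest of 1504 genes were taken, 7S RNA was most like mt-Tw, the tRNA for tryptophan on the H strand (r = 0.998), followed by the microRNA genes Mir208b (0.978) and Mir350 (0.976). mt-Tp was most like Clpx, which encodes a subunit of a protease of the mitochondrial matrix (0.975), Ahcyl1 (0.966) and mt-Tv, the tRNA for valine between the rRNAs (0.965). mt-Te was most like Vdac2, a channel of the outer mitochondrial membrane (0.956), Lrrc2 (0.949) and mt-Tf (0.940). mt-Nd6 was less tied to any gene, with Uqcrc2, a core subunit of complex III, at 0.892, Gtf2i at 0.888 and mt-Ts1, the L-strand tRNA for serine, at 0.882. Among the members, mt-Tp and mt-Te were most alike (r = 0.937), 7S RNA was nearer to mt-Tp (0.858) than to mt-Te (0.800), and mt-Nd6 had r = 0.457 with 7S RNA, 0.146 with mt-Tp and 0.0491 with mt-Te. These libraries share the differences in small RNA ratio given above, which enter every such r.

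Nuclear genes that act on these RNAs were nearly all too low to test in small RNA libraries. Of 10 listed genes of transcription from the mitochondrial promoters, 12 of primer formation and mitochondrial DNA replication and 7 of the use of these RNAs in translation, 0 passed the low-count filter. Of 20 listed for tRNA excision and RNA turnover 2 were tested, and neither passed the edgeR test over all genes. Lrpprc, which stabilises mitochondrial mRNAs, was at 0.29 on the log2 scale (edgeR adjusted p = 0.583), and Grsf1, an RNA-binding protein of mitochondrial RNA granules, was at 0.92 (edgeR adjusted p = 0.295).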

How the data were processed

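Raw counts per feature were made and deposited by the authors, 1 table per library. Per the submitters' processing notes the reads went through DESeq2 1.14.1, R 3.3.2, featureCounts, bedtools, SAMtools 1.3.1, Bowtie2 and cutadapt 1.10 with build mm10, in roles the notes do not give. Neither the annotation nor the handling of strand and of reads with several matches is stated, so members with nuclear copies are uncertain. In the normalised signal deposited by the authors each library has 1 divisor for all its counts. The comparison deposited by the authors holds log2 fold changes with their standard errors, a Wald score, p-values and adjusted p-values, per the file headers.

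The main test was edgeR's quasi-likelihood test on the counts (edgeR 4.0.16, R 4.3.3, TMM, minimum count 10, no covariate, two-sided), with Benjamini-Hochberg adjustment over 1505 genes and a threshold of 0.05. In fits, CPM are on normalised library sizes, and shares are of all counts. The 95% Wilson intervals of shares reached at most 13.6% of the share on either side and cover counting error only. Ratios are of log2(count + 0.5), tested by exact permutation over 35 assignments with a smallest p of 0.0286 (numpy 2.4.6, pandas 2.3.3, scipy 1.17.1, Python 3.11.15), and adjusted over 19 ratios. The procedure was tested on simulated data. Alternatives were other scalings and filters, a pseudocount of 5, DESeq2 1.42.0, the replicate block, each library left out and, added after the data were seen, the covariate and a fit to mitochondrially encoded features. The members, lists and named genes (the members, the 3 genes most like each, and called pathway genes) were chosen with earlier results of these data known.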

Additional observations from a re-analysis of the deposited data

Results flagged for a closer look

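The value of mt-Tp relative to the 6 distal L-strand tRNAs in knockout 1 (0.91 on the log2 scale) lay apart from the other knockouts (1.81 to 1.90). The gap was 0.912 of the range of the 4 libraries, above Dixon's 95% critical value for 4 samples. Of 27 such sets of knockout values 1 was singled out in this way, and chance singles out about 1 in 20.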

How the results depend on the processing

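Of 316 recomputed values, 287 were labelled unchanged, by rules that differed. Fold changes, and ratios and shares recomputed on all libraries by another formula, had to keep their sign and side of the threshold. The count of genes called had to keep a similar size. Ratios under the block, and ratios and shares with 1 library left out, had only to move by less than the pooled SD. Their recomputed p played no part, and some mt-Nd6 values changed sign and still counted as unchanged. The log2 fold change of mt-Tp passed with DESeq2 (2.68), with the covariate (2.59) and among mitochondrially encoded features alone (3.59), that of 7S RNA in the last 2 (2.02 and 2.94), and that of mt-Te in the last (2.23), where 36.1% of features were called. The log2 fold change of mt-Nd6 changed sign with the replicate block (0.18) and among mitochondrially encoded features alone (0.30), and ran from -0.76 to 0.33 with 1 library left out. With the distal H-strand tRNAs summed, mt-Te relative to them differed by 1.87 with an unadjusted exact permutation p of 0.0857, against 0.0286 with the mean (adjusted p = 0.0776), and mt-Nd6 by -0.0487. The mt-Nd6 share, taken without the other 3 members, differed by 0.00164 percentage points. The count of genes called, 105, was 8 under scaling to total counts and 8 to mitochondrially encoded features, 0 to microRNA genes (where 28 had an unadjusted p under 0.05 in edgeR), 55 with the upper quartile, 192 without a filter, 3 at a minimum count of 30, 231 with DESeq2, 371 with the covariate, and 0 to 75 with 1 library left out (0 without control 2 or control 3). The replicate block gave 0 calls by edgeR, with 338 genes at p under 0.05 before adjustment. Same-numbered libraries did not all deviate together (correlations 0.512, -0.777 and 0.306 for numbers 1 to 3). Knockouts 1 and 3 were most like the control of their number, and knockout 2 was most like control 1. The labels state no pairing, so the numbers were not taken to pair libraries. All 19 ratios moved by less than the SD pooled over both groups under the block and with any library left out, an SD that control 1 widened for some. Without control 1, 7S RNA over mt-Nd6 was 4.10, against 2.62, with an SD of 0.34 within knockouts, mt-Te over mt-Cytb was 3.64, against 2.77, with an SD of 0.15, and mt-Nd6 relative to distal tRNAs turned negative on the L strand (-0.0433) and the H strand (-0.31). With fewer libraries no exact test of a ratio can reach 0.05. The depth limits mt-Nd6 most, at 210 counts in knockout 4. The causes of these changes were not tested.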
